A study of Mus musculus with 4 samples.

Results

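Matrix metalloproteinases (MMPs) and tissue inhibitors of metalloproteinases (TIMPs) were followed in single-cell RNA sequencing (scRNA-seq) of mouse fracture callus. The 9 genes, chosen by name from the 32285 genes counted, were 6 proteases (*Mmp2*, *Mmp3*, *Mmp9*, *Mmp12*, *Mmp13* and *Mmp14*) and 3 inhibitors (*Timp1*, *Timp2* and *Timp3*), and all 9 had reads. The study asked how systemic inflammation alters the cells of the callus. Callus was collected at 4 and 7 days post fracture (dpf) from wild-type C57BL/6J mice that were 3 months old, in 4 libraries. The mice of control_4d and control_7d received vehicle, and those of RA_4d and RA_7d received K/BxN serum, whose transferred antibodies bring on an arthritis that models rheumatoid arthritis (RA) without autoantibodies made by the recipient. All 4 groups had a fracture, so no library describes intact bone. Each library was 1 pool of scraped and collagenase-digested callus, of 4 fractures per the labels, with 10000 cells loaded. With 1 library per condition there was no test between RA and control, and a difference between batches of libraries cannot be told apart from that between conditions.

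MMPs are secreted or membrane-bound zinc proteases that are made as inactive zymogens and cut collagens, proteoglycans, elastin and other proteins of the extracellular matrix. MMP-13 is the main interstitial collagenase of mice and is known from hypertrophic cartilage and bone. MMP-9 and MMP-2 are gelatinases, the first known from osteoclasts and neutrophils and the second from connective tissue cells. MMP-3 (stromelysin-1) cuts proteoglycans and activates other proMMPs, MMP-12 is the macrophage elastase, and MMP-14 is the membrane-anchored protease that activates proMMP-2. TIMPs bind active MMPs and block them. TIMP-2 also takes part in the activation of proMMP-2 by MMP-14, and TIMP-3 is held in the matrix and blocks ADAM and ADAMTS proteases as well. In fracture repair these proteases are known for the removal of cartilage matrix and for the entry of vessels.

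*Mmp3*, *Mmp12* and *Mmp13* are neighbours in the MMP gene cluster of chromosome 9. Yet *Mmp12* was read mainly from myeloid cells, and *Mmp3* and *Mmp13* mainly from mesenchymal cells. The bases before the starts of these genes are therefore shown beside those of *Timp1*, a gene outside the cluster. On GRCm38, with GENCODE M21 genes, *Mmp13* lies at chr9:7272514-7283331, *Mmp12* at chr9:7344381-7369499 and *Mmp3* at chr9:7445822-7455975, all on the plus strand. *Timp1* lies at chrX:20870166-20874735 on the plus strand. The sequences are the 250 bases before the RefSeq start of each gene (GRCm38.p6, plus strand, chr9:7445572-7445821, chr9:7272264-7272513, chr9:7344147-7344396 and chrX:20869916-20870165). The last 16 bases of the *Mmp12* window lie inside the GENCODE gene, which starts before the RefSeq start used. Capitals mark 3 motifs. The AP-1 site was searched as TGAGTCA on both strands, which reads TGACTCA where it lies on the other one. The TATA box was searched as TATAAA on the strand of the gene alone. The Runx site was searched as AACCACA on both strands.
Mmp3 promoter: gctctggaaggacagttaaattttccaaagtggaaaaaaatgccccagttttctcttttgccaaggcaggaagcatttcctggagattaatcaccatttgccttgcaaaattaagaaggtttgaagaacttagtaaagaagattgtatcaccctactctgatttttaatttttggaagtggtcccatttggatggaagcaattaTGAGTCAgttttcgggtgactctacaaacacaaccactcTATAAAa
Mmp13 promoter: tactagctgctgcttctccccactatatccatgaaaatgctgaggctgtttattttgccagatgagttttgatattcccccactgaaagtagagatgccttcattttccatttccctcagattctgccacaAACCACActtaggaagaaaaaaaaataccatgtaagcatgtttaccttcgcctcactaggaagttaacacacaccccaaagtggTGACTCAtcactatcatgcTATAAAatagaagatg
Mmp12 promoter: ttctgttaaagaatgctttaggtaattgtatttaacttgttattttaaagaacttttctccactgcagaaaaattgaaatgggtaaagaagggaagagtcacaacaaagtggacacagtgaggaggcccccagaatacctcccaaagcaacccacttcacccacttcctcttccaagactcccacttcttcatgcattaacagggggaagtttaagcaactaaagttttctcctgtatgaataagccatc
Timp1 promoter: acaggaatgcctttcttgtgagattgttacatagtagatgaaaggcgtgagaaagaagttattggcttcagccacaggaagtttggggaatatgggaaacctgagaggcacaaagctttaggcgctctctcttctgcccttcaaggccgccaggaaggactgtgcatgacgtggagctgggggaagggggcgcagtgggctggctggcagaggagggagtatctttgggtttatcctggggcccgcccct

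The AP-1 letters begin 46 bases before the start of *Mmp3* and 35 bases before that of *Mmp13*, and both genes hold TATAAA between these letters and the start. *Mmp13* alone of the 4 holds the Runx letters, beginning 119 bases before its start. The letters of none of the 3 motifs stand in the window of *Mmp12* shown or in that of *Timp1*, while a second RefSeq start of *Mmp12*, 2993 bases downstream of the GENCODE gene start, has AP-1 letters that begin 44 bases before it. Of 32851 RefSeq promoter windows of this length, 4.46% hold the AP-1 letters, 7.59% the TATA letters and 4.40% the Runx letters. A match is a description of the letters, and was not tested against the expression of the genes.

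The authors deposited the number of unique molecular identifiers (UMIs, each standing for 1 captured molecule) of each gene in each cell barcode. The filter of the study's methods kept 25479 of 34038 barcodes, with 4110 to 8223 cells and between 83405494 and 156567619 UMIs per library and median depths of 16093.5 to 17631.5 UMIs per cell, and between 5 and 15 barcodes were shared by any pair of libraries. Clustering without the genes followed here, or those of the lists named below, gave 22 clusters. Marker genes named 20 of them, and the names carry the ending -like because they were rebuilt from markers and may differ in their cells from the clusters of the study. Clusters 6 and 9 held myeloid cells with markers of several kinds (cluster 6 was led by *Retnla*, *H2-Eb1* and *Ccr2*, cluster 9 by *Ifitm1*, *Ccr7* and *Il1b*), so they are given by number. Levels are in CPM, which divides the UMIs of a gene in all cells of a class in a library by all UMIs of those cells and scales every class to the same total. Intervals are at 95% and hold only the error of counting. CPM of a 3′ library counts captured molecules without regard to transcript length, but capture can differ between genes, so that levels are compared between cells and libraries and not between genes. *Mmp9*, *Mmp12* and *Mmp13* are among the leading genes of the osteoclast precursor-like cluster, of cluster 6 and of the committed mesenchymal progenitor-like cluster, although they were left out of the clustering, so their levels by class are a description.

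Mesenchymal cells held the largest share of the UMIs of 7 of the 9 genes, as the mean of the 4 libraries, and myeloid cells that of *Mmp9* and *Mmp12*. The mesenchymal share was 94.0% for *Mmp3*, 87.0% for *Mmp2*, 86.5% for *Timp1*, 80.5% for *Mmp13*, 68.5% for *Mmp14*, 56.4% for *Timp2* and 46.0% for *Timp3*. Myeloid cells held 91.0% of the *Mmp12* UMIs and 75.1% of the *Mmp9* UMIs, and also 27.2% of the *Timp2* UMIs and 20.1% of the *Mmp14* UMIs. Blood endothelial cells held 22.8% of the *Timp3* UMIs, and pericytes, muscle and Schwann cells together a further 18.0%. At resolution 1, where 3 clusters of 1010, 956 and 231 cells that scored highest for mesenchymal classes stayed unnamed, the mesenchymal share was 39.3% for *Timp1*, 46.6% for *Mmp14*, 49.7% for *Mmp13* and 8.17% for *Mmp9*, against 22.0% for *Mmp9* otherwise. These shares move with the make-up of a library. Myeloid cells gave 50.4% of all UMIs in control_4d, 51.2% in RA_4d, 24.3% in control_7d and 12.8% in RA_7d.

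**Figure D1:**
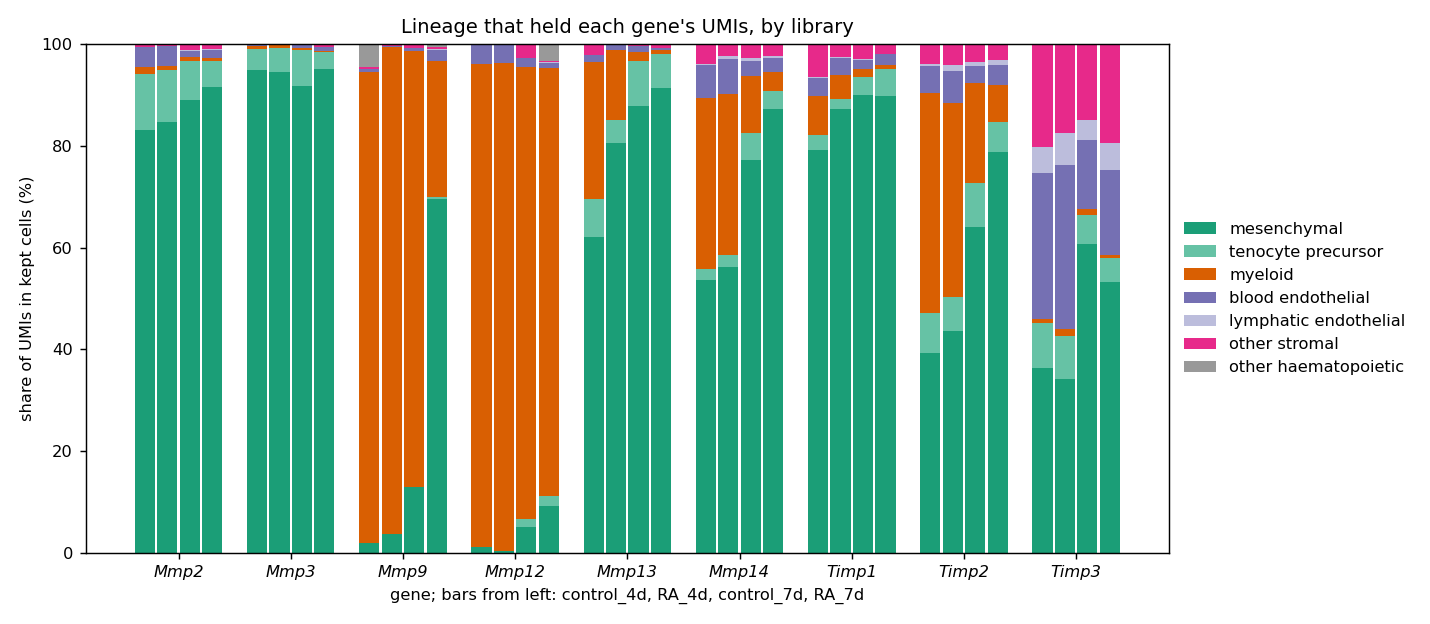
Share of each gene's UMIs (%, y axis) by cell lineage, with 4 stacked bars per gene for control_4d, RA_4d, control_7d and RA_7d. Mesenchymal cells fill most of the bars of *Mmp3* (mean 94.0%) and myeloid cells those of *Mmp12* (mean 91.0%), and the *Mmp9* bar of RA_7d is the 1 in which myeloid cells do not lead.

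Some of the genes were spread over most cells and others were carried by few. The 1% of kept cells with the most UMIs of a gene held 7.38% of the *Timp2* UMIs, 8.22% of the *Mmp14* UMIs and 9.30% of the *Mmp2* UMIs. The same share of cells held 39.6% of the *Mmp3* UMIs, 76.3% of the *Mmp13* UMIs, 83.7% of the *Mmp9* UMIs and 88.2% of the *Mmp12* UMIs. A *Timp2* UMI was found in 87.5% of the cells, whereas *Mmp12* was found in 4.55%. The sums of *Mmp9*, *Mmp12* and *Mmp13* therefore rest on few cells, and 1 cell can decide the level of a class.

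**Figure D2:**
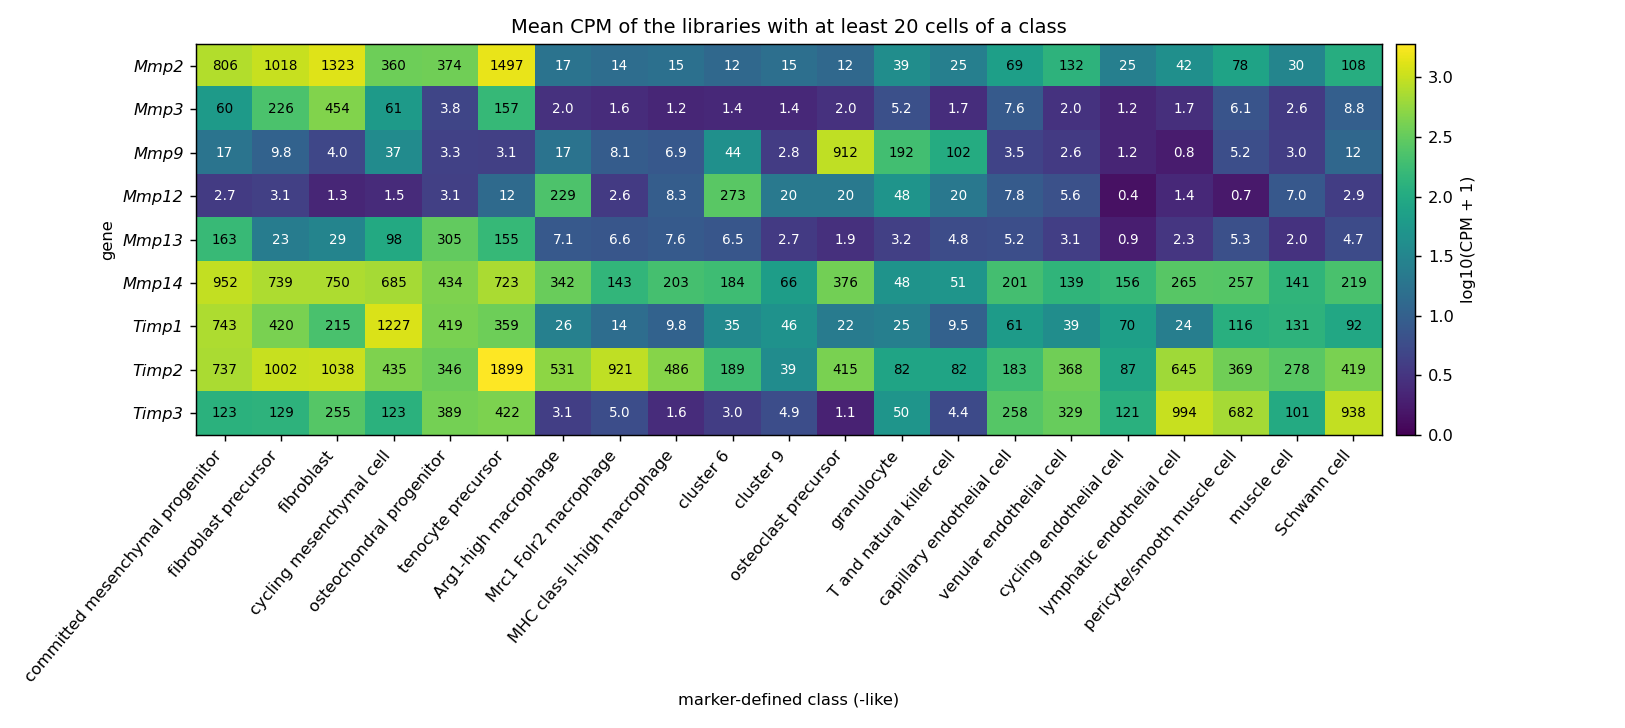
Level of each gene (rows) in each class of cells (columns), as the mean CPM of the libraries with at least 20 cells of the class, written in each field and coloured by log10(CPM + 1). *Mmp3* is highest in fibroblast-like cells (454 CPM), *Mmp9* in osteoclast precursor-like cells (912 CPM) and *Timp1* in cycling mesenchymal cell-like cells (1227 CPM).

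RA and control libraries were compared by the ratio of their levels, log2 of (CPM + 1) in RA over that in control, and a gene was counted as past 2-fold when this was at least 1 in either direction with at least 50 UMIs over both libraries. In all kept cells, 1 of the 9 genes was past 2-fold at 4 dpf (*Mmp13*, higher in RA), where 1.27% of all genes were. At 7 dpf these were *Mmp3*, higher in RA, and *Mmp9*, lower, beside 2.04% of all genes. In the sum of the mesenchymal cells, *Mmp9* and *Mmp13* were higher in RA at 4 dpf among the 8 genes with enough UMIs (1.71% of all genes past 2-fold), and *Mmp3* at 7 dpf among 9 (2.77%). In myeloid cells *Timp1* was lower in RA at 4 dpf (2.17%), and at 7 dpf *Mmp3* was higher and *Mmp9* lower (1.7%). In blood endothelial cells none of 7 genes was past 2-fold at 4 dpf (1.07%), and the same pair was at 7 dpf (2.19%). Endothelial *Mmp9* was low, at 4.49 CPM in control_7d (61 UMIs) and 1.62 CPM in RA_7d (29 UMIs). The part of free RNA from other cells in that difference was not tested. The median log2 ratio of the 9 genes in mesenchymal cells at 7 dpf was 0.30, with -0.04 over all genes, and at 4 dpf it was 0.00 for 8 genes with 0.02 over all genes.

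**Figure D3:**
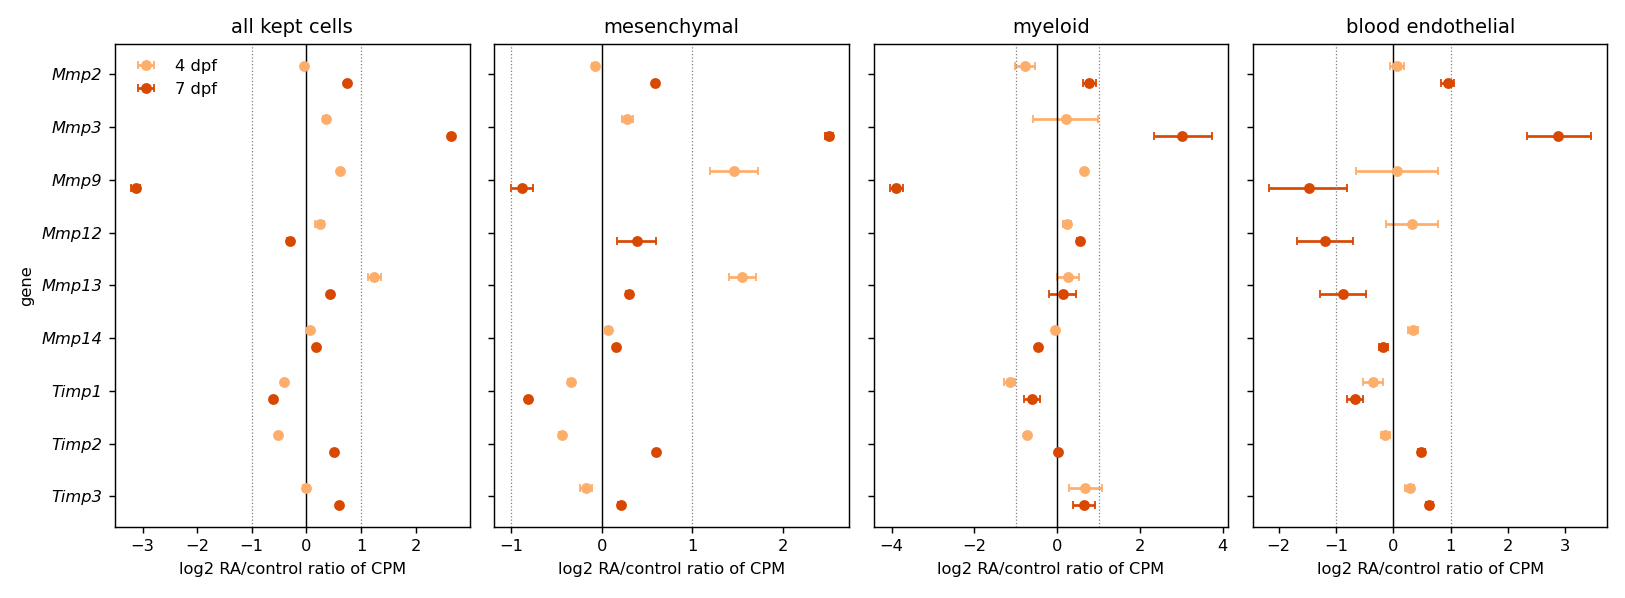
Log2 of the RA over control ratio of CPM (x axis) of each gene (y axis) at 4 dpf (light) and 7 dpf (dark), in all kept cells and in 3 lineages, with 95% intervals for counting error and dotted lines at 2-fold. *Mmp3* lies to the right of the line at 7 dpf in every panel, and *Mmp9* to the left of it in all panels but the mesenchymal.

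*Mmp3* was the gene with the largest difference in the mesenchyme. It was at 162 CPM in the mesenchymal cells of control_4d, 197 in RA_4d, 66.8 in control_7d and 381 in RA_7d. RA_7d was therefore above the other libraries, and control_7d was the lowest. The RA over control ratio was 1.22 (95% interval 1.17 to 1.27, log2 0.28) at 4 dpf and 5.70 (5.54 to 5.87, log2 2.49) at 7 dpf. The value at 7 dpf combined a lower level in control_7d than in control_4d (log2 -1.26) with a level in RA_7d that was higher than in RA_4d (log2 0.95). The first of these was smaller under other settings, with log2 -0.35 under the looser filter, -0.67 with equal class weights and -0.86 with the class mix of 4 dpf.

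Fibroblast-like cells, led by *Cxcl14*, *Myoc* and *Abca8a*, held the highest *Mmp3* level in every library, at 444 CPM in control_4d, 479.8 in RA_4d, 224 in control_7d and 666 in RA_7d. Fibroblast precursor-like cells, led by *Rorb*, *Pi16* and *Efemp1*, followed with 122, 278, 75.2 and 428 CPM in the same order. Committed mesenchymal progenitor-like cells, led by *Tnn*, *Tnc* and *Edil3*, were at 30.3, 7.52, 21.7 and 182 CPM. Hence their level in RA_7d was above that of control fibroblast precursor-like cells at either time, but below that of fibroblast-like cells in any library. In tenocyte precursor-like cells *Mmp3* was at 80.9, 142, 110.1 and 296 CPM, and in cycling mesenchymal cell-like cells at 22.2, 51.2, 14.8 and 154 CPM. Osteochondral progenitor-like cells, which make cartilage matrix, were low, with 0.91 CPM in control_7d and 6.66 CPM in RA_7d.

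At 7 dpf *Mmp3* was past 2-fold higher in RA in all 8 classes that had enough UMIs. The log2 ratio was 1.57 in fibroblast-like cells, 2.49 in fibroblast precursor-like cells, 3.01 in committed mesenchymal progenitor-like cells, 3.30 in cycling mesenchymal cell-like cells and 1.42 in tenocyte precursor-like cells. The other classes counted were capillary endothelial cell-like, pericyte or smooth muscle cell-like and Schwann cell-like cells. Of these, Schwann cell-like cells had no *Mmp3* UMI in control_7d and 32.9 CPM in RA_7d, and pericyte or smooth muscle cell-like cells reached at most 18.9 CPM in any library. Called doublets made up 3.67% of the Schwann cell-like and 5.64% of the pericyte or smooth muscle cell-like cells. The part of doublets and free RNA in their values was not tested. At 4 dpf the log2 ratio of *Mmp3* was counted in 5 classes. It was 1.18 in fibroblast precursor-like cells and 1.17 in cycling mesenchymal cell-like cells, 0.11 in fibroblast-like cells, and -1.88 in committed mesenchymal progenitor-like cells, the class with the opposite direction. With cells thinned to 4000 UMIs each, the share of committed mesenchymal progenitor-like cells with an *Mmp3* UMI was 4.27% in control_4d, 1.45% in RA_4d, 3.60% in control_7d and 23.4% in RA_7d, and without thinning 12.46%, 13.45%, 9.87% and 42.9%. In fibroblast precursor-like cells the thinned share was 20.6%, 27.5%, 12.52% and 45.8%, and in fibroblast-like cells 46.6%, 50%, 29.4% and 52.1%. The difference at 7 dpf was thus in the number of cells with an *Mmp3* UMI as well as in the summed level.

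**Figure D4:**
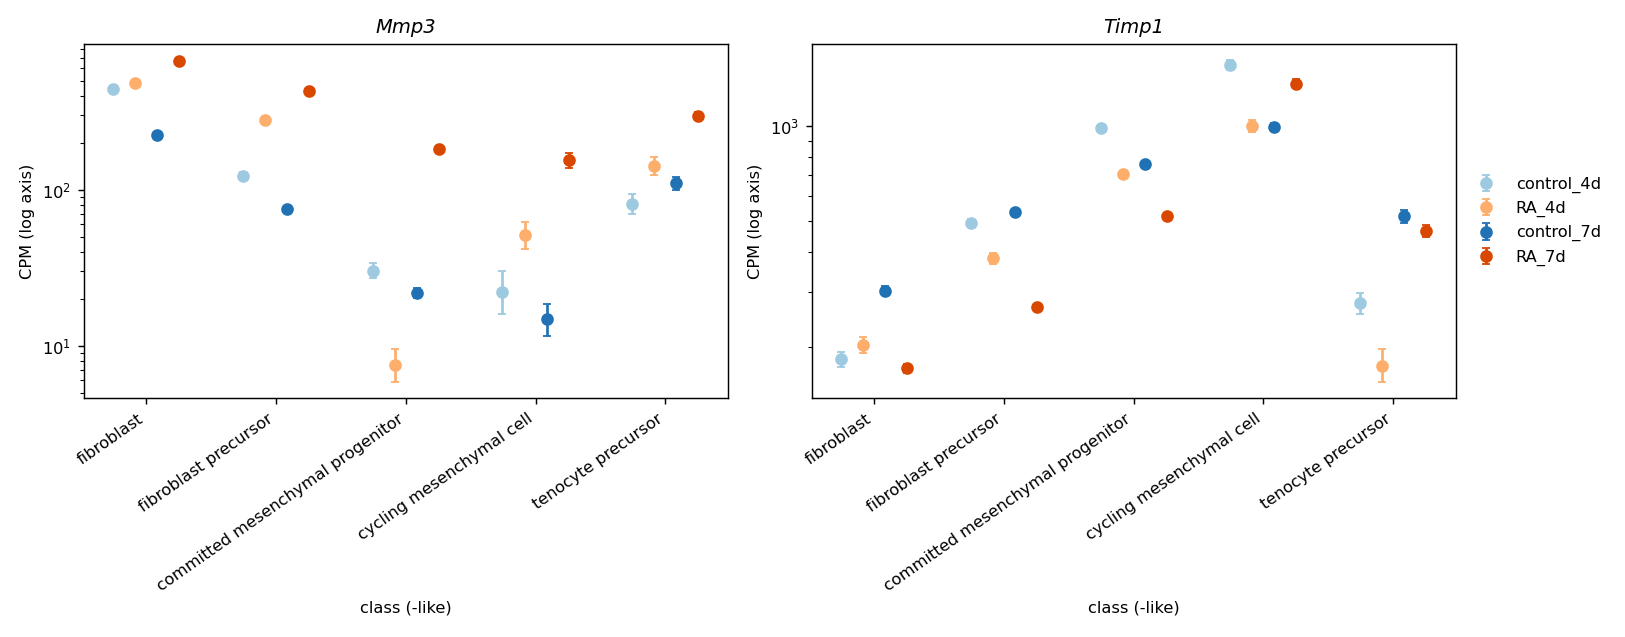
CPM (log axis) of *Mmp3* and *Timp1* in 5 mesenchymal and tendon classes (x axis), with 1 point per library and 95% intervals for counting error. The *Mmp3* point of RA_7d is the highest in each class, from 154 to 666 CPM, and the *Timp1* point of RA_7d is the lowest in fibroblast-like (172 CPM), fibroblast precursor-like (268 CPM) and committed mesenchymal progenitor-like cells (519 CPM).

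T and natural killer cell-like cells, which should lack *Mmp3*, held no *Mmp3* UMI in 3 libraries, which allows up to 3.57 CPM in the smallest of them (upper bound of the exact Poisson interval), and 16 UMIs in RA_7d. These lay in 5.15% of 291 cells (3.09% after thinning), at a median depth of 7524.5 UMIs in this class and of 21116 in the main fibroblast-like cluster, which gives 6.75 CPM. The myeloid level was 0.64 CPM in control_7d and 5.14 CPM in RA_7d, where it was below that of T and natural killer cell-like cells. Granulocyte-like cells of RA_7d were above it, at 18.8 CPM (95% interval 11.6 to 28.7) from 21 UMIs in 49 cells. The part of free RNA in the myeloid difference was not tested. Blood endothelial cells were at 16.7 CPM in RA_7d and 2.28 CPM in control_7d, with 26.1 CPM in capillary endothelial cell-like cells, a cluster of which 10.2% of the cells were called doublets. The part of doublets and free RNA in the endothelial value was not tested beyond leaving out the called doublets, after which *Mmp3* was still past 2-fold.

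*Mmp9* had its highest level in osteoclast precursor-like cells, which carried *Acp5*, *Ctsk* and *Atp6v0d2*. The level was 771 CPM in control_4d (295 cells), 960.3 in RA_4d (284 cells), 1789 in control_7d (175 cells) and 126 in RA_7d (24 cells). RA_7d stood below the other libraries in both the level and the number of cells. Its 55 *Mmp9* UMIs came from 3 cells, 48 of them from 1 cell, and without that cell the level was 17.6 CPM. The ratio at 7 dpf was 0.0707 (95% interval 0.0532 to 0.0921), and that at 4 dpf 1.25 (1.21 to 1.29).

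The osteoclast markers themselves were lower in these cells of RA_7d than in control_7d. *Acp5*, which encodes tartrate-resistant acid phosphatase, was at 773 against 2747 CPM, *Ctsk*, which encodes the collagen-cutting cathepsin K, at 1962 against 4362 CPM, and *Ocstamp*, a gene of osteoclast fusion, at 46.0 against 147 CPM. Against control_4d, however, *Ctsk* (1924 CPM) and *Ocstamp* (48.8 CPM) were close to RA_7d and *Acp5* was higher (1181 CPM), whereas *Mmp9* was at 771 CPM there and 126 CPM in RA_7d. The part of the markers in the *Mmp9* value was not tested. The cell filter also touched this gene. Barcodes that met every limit but the mitochondrial one held *Mmp9* at 320.3 CPM in control_4d, 415 in RA_4d, 3901 in control_7d and 2.86 in RA_7d, from 76 to 248 barcodes. With all deposited barcodes, *Mmp9* was at 78.7 CPM in control_4d, 152 in RA_4d, 135 in control_7d and 13.3 in RA_7d, so that RA_7d was the lowest with the filter and without it.

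Granulocyte-like cells, led by *Camp*, *S100a9* and *S100a8*, had the next highest mean level of *Mmp9* by class, with 159.5 CPM in control_4d, 225 in RA_4d, 273 in control_7d and 112 in RA_7d. Here too RA_7d was the lowest (log2 ratio at 7 dpf -1.28). In Arg1-high macrophage-like cells the direction at 7 dpf was the opposite, at 7.90 CPM in control_7d and 20.4 in RA_7d (log2 1.26), but 1 cell held 59 of the 113 UMIs of RA_7d and without it the level was 9.77 CPM. The level of 398 CPM in T and natural killer cell-like cells of control_4d came from 1 cell with 410 of 411 UMIs. Likewise 537 of the 579 UMIs of cluster 6 in control_4d lay in 1 cell, and neither value describes its class.

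Mesenchymal cells held a low level of *Mmp9*, at 6.14 CPM in control_4d, 16.95 in RA_4d, 17.05 in control_7d and 9.24 in RA_7d. RA_4d and control_7d were level, and control_4d and RA_7d were lower. RA was 2.76-fold higher at 4 dpf (95% interval 2.30 to 3.33), in committed mesenchymal progenitor-like cells from 7.15 to 22.5 CPM and in fibroblast precursor-like cells from 4.14 to 15.8 CPM. At 7 dpf fibroblast precursor-like cells went the other way, from 16.3 to 3.01 CPM. However, 114 of the 328 UMIs in control_7d lay in 1 cell, and without it the control level was 10.7 CPM. Called doublets made up 7.26% of the fibroblast precursor-like and 1.52% of the committed mesenchymal progenitor-like cells. Without called doublets the mesenchymal difference at 4 dpf was still past 2-fold. The part of other doublets and of free RNA in these low levels was not tested. Since so few *Mmp9* UMIs were left in osteoclast precursor-like cells of RA_7d (4.21%, against 77.0% in control_7d), committed mesenchymal progenitor-like cells held the largest share of this gene there, 47.1%.

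**Figure D5:**
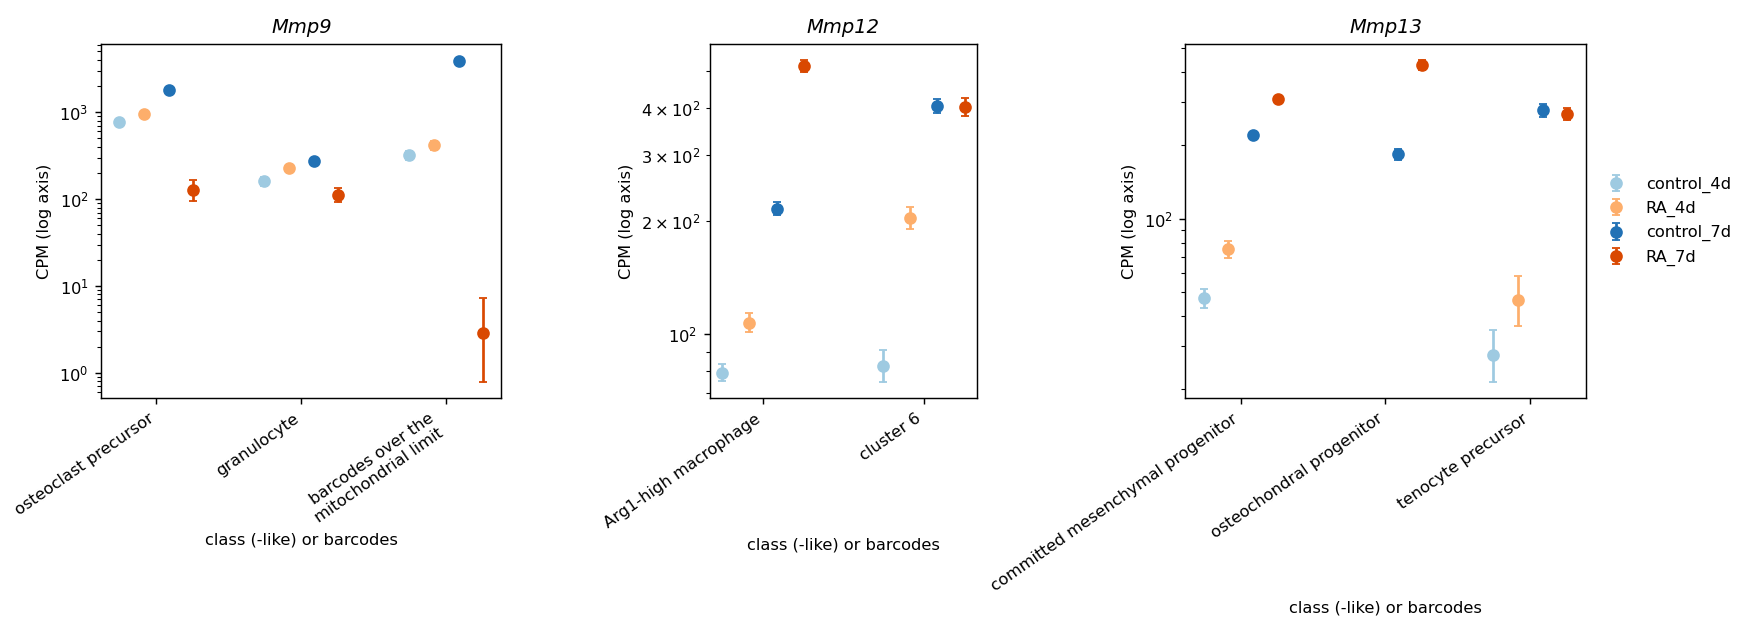
CPM (log axis) of *Mmp9*, *Mmp12* and *Mmp13* in the classes with their highest mean levels (x axis). *Mmp9* is also shown in barcodes removed by the mitochondrial limit alone. There is 1 point per library, with 95% intervals for counting error. The *Mmp9* point of RA_7d is the lowest in each of its 3 columns (126, 112 and 2.86 CPM), while RA_7d is the highest for *Mmp12* in Arg1-high macrophage-like cells (515 CPM).

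*Mmp2* was a gene of all the mesenchymal and tendon classes, with the highest mean in tenocyte precursor-like (1497 ± 128 CPM, SD of the 4 libraries) and fibroblast-like cells (1323 ± 71.6 CPM). The ranges of these neighbours over the libraries overlapped. In the mesenchymal sum it was at 877 CPM in control_4d, 833 in RA_4d, 829 in control_7d and 1247 in RA_7d, so that 3 libraries were alike and RA_7d was above them. The ratio at 7 dpf was 1.504 (95% interval 1.49 to 1.52, log2 0.59), short of 2-fold. At 7 dpf fibroblast precursor-like cells were at 894 CPM in control and 1423 in RA, and committed mesenchymal progenitor-like cells at 767 and 1102 CPM, while fibroblast-like cells were at 1308 and 1415 CPM. Capillary endothelial cell-like cells were low, at 25.7 CPM in control_4d, 41.8 in RA_4d, 65.0 in control_7d and 144 in RA_7d, but past 2-fold at 7 dpf (log2 1.14). Of this cluster 10.2% of the cells were called doublets, and T and natural killer cell-like cells held *Mmp2* at 5.82 to 52.7 CPM over the libraries. The part of doublets and free RNA in the capillary value was not tested. The interval of the *Mmp2* ratio lay above 1 in 12 of the 21 classes at 7 dpf and below 1 in 3.

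*Mmp14*, which encodes the activator of proMMP-2, was found in 81.1% of the cells. Committed mesenchymal progenitor-like cells had the highest mean (952 ± 157 CPM), followed by fibroblast-like (749.5 ± 99.1 CPM) and fibroblast precursor-like cells (739 ± 126 CPM), and the ranges of these neighbours overlapped. Tenocyte precursor-like cells were at 723 ± 388 CPM. Among myeloid classes, osteoclast precursor-like cells (376 ± 76.3 CPM) and Arg1-high macrophage-like cells (342 ± 42.1 CPM) led. In mesenchymal cells *Mmp14* was at 714 CPM in control_4d, 752 in RA_4d, 830.4 in control_7d and 930.4 in RA_7d, with log2 ratios of 0.08 at 4 dpf and 0.16 at 7 dpf. These were small beside those of *Mmp3*. At 7 dpf *Mmp14* was lower in RA, with an interval below 1, in 12 of 21 classes, and higher in 6. Mrc1 Folr2 macrophage-like cells had the lowest ratio at 7 dpf (82.6 against 202 CPM, log2 -1.28).

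*Mmp13* had its highest mean levels in osteochondral progenitor-like (305 CPM, 2 libraries), committed mesenchymal progenitor-like (163 CPM) and tenocyte precursor-like cells (155 CPM). The first of these were led by *Col2a1*, *Ibsp* and *Hapln1*. The ranges of these classes over the libraries overlapped. Fibroblast precursor-like cells were lower, at 1.79 to 59.1 CPM. They gave 23.1% of all UMIs in RA_7d, however, and osteochondral progenitor-like cells 2.59%. The order by level is thus not an order by UMIs held. At 7 dpf the osteochondral class was at 184 CPM in control (268 cells) and 427 in RA (141 cells), a ratio of 2.32 (95% interval 2.16 to 2.49). These levels rest on few cells, since after thinning 20 cells of the class in control_7d and 22 in RA_7d held an *Mmp13* UMI. The highest kept cell of RA_7d held 903 of the 17210 *Mmp13* UMIs of that library, and its class is not given here. At 4 dpf the osteochondral class held 3 cells in control_4d, with 1 *Mmp13* UMI, and 6 cells in RA_4d, with 362 UMIs, which were 22.2% of the *Mmp13* UMIs of RA_4d. Committed mesenchymal progenitor-like cells were at 47.4 CPM in control_4d, 75.0 in RA_4d, 219.7 in control_7d and 311 in RA_7d, so that RA was above control at both times and 7 dpf above 4 dpf. Tenocyte precursor-like cells were at 27.7, 46.4, 278 and 269 CPM in the same order, with an RA over control ratio at 7 dpf whose interval held 1 (0.886 to 1.05).

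In the mesenchymal sum *Mmp13* was at 19.9 CPM in control_4d, 58.6 in RA_4d, 129.9 in control_7d and 160.1 in RA_7d. The ratio was 2.94 (95% interval 2.66 to 3.25, log2 1.51) at 4 dpf and 1.23 (1.20 to 1.26, log2 0.30) at 7 dpf. Without osteochondral progenitor-like cells, an alternative chosen after seeing the data, the log2 ratio at 4 dpf was 1.07 in mesenchymal cells, and in all kept cells it was 0.81 instead of 1.15 and no longer past 2-fold. Fibroblast-like cells were at 2.18 CPM in control_4d, 12.3 in RA_4d, 34.8 in control_7d and 66.9 in RA_7d. The T and natural killer cell-like cells, as background, were highest in RA_7d, where 7.22% of them held an *Mmp13* UMI after thinning against 19.7% of committed mesenchymal progenitor-like cells. Myeloid cells were at 4.41 CPM in control_4d, 5.27 in RA_4d, 5.93 in control_7d and 6.54 in RA_7d, and T and natural killer cell-like cells at 0.97, 1.06, 4.72 and 12.7 CPM in the same order. The myeloid level was therefore above this background in the libraries of 4 dpf, though in control_4d within its counting interval (up to 5.40 CPM), and below it in RA_7d.

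*Mmp12* was read mainly from Arg1-high macrophage-like cells and the mixed myeloid cluster 6. Arg1-high macrophage-like cells, led by *Arg1*, *Spp1* and *Gpnmb*, held 53.6% of its UMIs on average and cluster 6 held 29.6%. The first were at 79.1 CPM in control_4d, 107 in RA_4d, 215 in control_7d and 515 in RA_7d, so the level was higher at 7 than at 4 dpf and higher in RA at both times. The ratio was 1.36 (95% interval 1.25 to 1.47) at 4 dpf and 2.39 (2.27 to 2.52, log2 1.25) at 7 dpf. In RA_4d a single cell held 602 of the 1148 UMIs and without it the level was 51.1 CPM, below control_4d. In RA_7d the highest cell held 400 of 2861 UMIs and without it the level was 445 CPM. The thinned share of Arg1-high macrophage-like cells with an *Mmp12* UMI was 5.45%, 5.78%, 7.64% and 15.5%.

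Cluster 6 was at 82.3 CPM of *Mmp12* in control_4d, 203 in RA_4d, 404 in control_7d and 400.4 in RA_7d, so that the pair of 7 dpf libraries was level (ratio 0.991, 95% interval 0.924 to 1.06). Mrc1 Folr2 macrophage-like cells held almost none of it, between 1.03 and 5.31 CPM. *Mmp12* overlaps *Mmp1b*, a gene of the other strand. In all kept cells *Mmp12* was at 22.3, 26.4, 40.2 and 32.7 CPM. Its sum was thus lower in RA_7d than in control_7d (log2 -0.29) although the level per myeloid UMI was higher (147 against 215 CPM, log2 0.54), in a library in which myeloid cells gave fewer of the UMIs. With the class mix of control the sum was higher in RA_7d, and with equal class weights the myeloid level was lower there. The level of 73.0 CPM in T and natural killer cell-like cells of RA_7d came from 1 cell with 166 of 173 UMIs.

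*Timp1* was highest in cycling mesenchymal cell-like cells, at 1557 CPM in control_4d, 998 in RA_4d, 994 in control_7d and 1360.2 in RA_7d. The lowest of these values, 994 CPM, lay just above the highest of the next class (986 CPM), so the ranges over the libraries nearly met. Committed mesenchymal progenitor-like cells were at 986, 706, 760.3 and 519 CPM, and fibroblast precursor-like cells at 495, 382, 536 and 268 CPM, with RA below control at both times. Fibroblast-like cells, the class highest in *Mmp3*, were at 183, 203, 302 and 172 CPM, with the lowest mean of the mesenchymal classes (215 ± 59.3 CPM). In the mesenchymal sum *Timp1* was at 665 CPM in control_4d, 526 in RA_4d, 620.1 in control_7d and 354 in RA_7d. The ratio was 0.791 (95% interval 0.773 to 0.810) at 4 dpf and 0.571 (0.563 to 0.579) at 7 dpf, on the log2 scale -0.34 and -0.81, neither past 2-fold.

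The lower *Timp1* of RA ran through many classes. Of 18 classes with enough UMIs at 4 dpf, 14 had an interval below 1 and 1 above it, and of 20 classes at 7 dpf 12 had an interval below 1 and 2 above it. The exceptions at 7 dpf were cycling mesenchymal cell-like cells (log2 0.45) and osteoclast precursor-like cells (1.22), and at 4 dpf fibroblast-like cells (0.15). The osteoclast precursor-like value rests on 24 cells in RA_7d, in a class with at most 39.1 CPM of *Timp1* in any library. Myeloid cells were at 33.5 CPM in control_4d, 15.1 in RA_4d, 25.2 in control_7d and 16.6 in RA_7d, so the myeloid difference at 4 dpf was past 2-fold at a low level, with T and natural killer cell-like cells at 5.81 to 14.1 CPM. MHC class II-high macrophage-like cells (7.75 to 12.4 CPM) and Mrc1 Folr2 macrophage-like cells (10.1 to 21.7 CPM) overlapped that range. The part of free RNA in the differences of such low classes was not tested. Muscle cell-like cells were at 258, 95.4, 133 and 38.3 CPM. *Timp1* lies inside *Syn1*, a gene of the other strand. *Syn1* was at 4.38 to 5.20 CPM in all kept cells and *Timp1* at 162 to 378 CPM. The cell filter also moved *Timp1*, since 57766 of the 81889 *Timp1* UMIs of control_4d lay in barcodes above the upper limits. Over all deposited barcodes it was at 487 CPM in control_4d, 326 in RA_4d, 414 in control_7d and 316 in RA_7d, so that RA was again below control at both times, but control_4d was above control_7d, while among kept cells it was below (216 and 378 CPM).

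*Timp2* was the most widely found inhibitor, with 87.5% of the cells holding a UMI. Tenocyte precursor-like cells had the highest mean (1899 ± 325 CPM), clear of fibroblast-like (1038 ± 164 CPM), fibroblast precursor-like (1002 ± 264 CPM) and Mrc1 Folr2 macrophage-like cells (921 ± 149 CPM), whose ranges overlapped. In mesenchymal cells it was at 894 CPM in control_4d, 659 in RA_4d, 749 in control_7d and 1136 in RA_7d, so RA was below control at 4 dpf (ratio 0.737, 95% interval 0.723 to 0.753) and above it at 7 dpf (1.52, 1.503 to 1.53). At 4 dpf the interval lay below 1 in 14 of 20 classes and above it in none. At 7 dpf it lay above 1 in 9 of 21 and below it in 6, and fibroblast precursor-like cells had the highest ratio (757 against 1340.3 CPM, log2 0.82). Part of *Timp2* overlaps *Cep295nl* on the same strand, and how reads of the overlap were assigned was not checked.

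*Timp3* was highest in lymphatic, Schwann and mural cells. Lymphatic endothelial cell-like cells were at 1459 CPM in control_4d, 885 in RA_4d, 590.3 in control_7d and 1042 in RA_7d, and Schwann cell-like cells at 913, 1012, 798 and 1030.1 CPM. Pericyte or smooth muscle cell-like cells were at 575, 826, 585 and 743 CPM. Macrophage-like classes held next to none of it, with means of 1.64 to 4.98 CPM, in contrast to *Timp2*. The mesenchymal level was 156, 139, 172 and 199.7 CPM, with log2 ratios of 0.22 at 7 dpf and -0.17 at 4 dpf, the latter near 0 and of the other sign under the looser filter and with equal class weights. At 7 dpf the interval lay above 1 in 13 of 16 classes and below 1 in osteochondral progenitor-like cells (434 against 345 CPM). *Syn3*, on the other strand of the *Timp3* locus, was at 5.12 to 11.3 CPM in all kept cells.

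UMIs of the 6 proteases were also set against those of the 3 inhibitors in the same cells, as a ratio of captured molecules that says nothing of active protein. In mesenchymal cells there were 1.04 protease UMIs per inhibitor UMI in control_4d (95% interval 1.02 to 1.05), 1.40 in RA_4d (1.38 to 1.42), 1.22 in control_7d (1.21 to 1.23) and 1.62 in RA_7d (1.61 to 1.63). The ratio was higher in RA than in control at both times, and also in fibroblast-like cells (1.32, 1.74, 1.79 and 2.02), fibroblast precursor-like cells (0.953, 1.51, 1.18 and 1.57) and committed mesenchymal progenitor-like cells (1.02, 1.21, 1.21 and 1.53), where the committed cells of RA_4d and control_7d were level. Cycling mesenchymal cell-like cells went the other way at 7 dpf, with ratios of 0.564, 0.756, 0.832 and 0.680 in the same order of libraries. In osteoclast precursor-like cells the ratio was 2.27, 4.26, 4.91 and 1.11, with the 24 cells of RA_7d the lowest. In blood endothelial cells it stayed between 0.445 and 0.560. The order of RA and control was not the same elsewhere. In myeloid cells together the ratio was 0.808 in control_4d and 1.61 in RA_4d, but 1.27 in control_7d and 0.860 in RA_7d. At 7 dpf RA was above control in Arg1-high macrophage-like cells (0.865 and 1.52), cluster 6 (2.42 and 2.97) and cluster 9 (1.19 and 2.04). RA was lower in Mrc1 Folr2 (0.253 and 0.131) and MHC class II-high macrophage-like (0.498 and 0.371), granulocyte-like (2.50 and 1.20) and osteoclast precursor-like cells. In pericytes, muscle and Schwann cells together the ratio was lower in RA at both times. It was 0.257 and 0.227 at 4 dpf and 0.415 and 0.337 at 7 dpf. Muscle cell-like cells alone were slightly higher in RA (0.266 and 0.291, 0.467 and 0.496), with overlapping intervals.

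Within single cells thinned to 4000 UMIs, *Mmp13* was more often found beside *Mmp3* in fibroblast-like and committed mesenchymal progenitor-like cells of RA_7d. In control callus the intervals of the shares lay apart only in committed mesenchymal progenitor-like cells of control_4d, with 12 *Mmp3* cells. In RA_7d, 8.76% of 605 fibroblast-like cells with an *Mmp3* UMI held *Mmp13*, against 1.26% of those without. Of 267 committed mesenchymal progenitor-like cells of RA_7d with *Mmp3*, 32.2% held *Mmp13*, against 15.8% of those without. In fibroblast-like cells of control_7d the shares were 7.65% and 6.36%, with overlapping intervals. At 4 dpf the shares of this class lay in the other order, again with overlapping intervals. They were 0% of 122 cells and 0.714% in control_4d, and 0.952% of 105 cells and 1.90% in RA_4d. In committed mesenchymal progenitor-like cells the shares were 41.7% of 12 cells (95% interval 15.2 to 72.3%) and 5.58% in control_4d. They were 25.6% of 43 cells (13.52 to 41.2%) and 15.5% (13.41 to 17.7%) in control_7d, and 0% of 4 cells and 9.23% in RA_4d. *Timp1* was found in 30.0% of the 50 fibroblast precursor-like cells of RA_4d with *Mmp3* and in 66.7% of those without. Elsewhere in this class the intervals overlapped, with 46.9% and 50.7% in RA_7d, 58.6% and 66.5% in control_4d, and 69.6% and 66.5% in control_7d. In fibroblast-like cells they overlapped in every library. The shares there were 39.3% and 29.3% in control_4d, 31.4% and 34.3% in RA_4d, 55.2% and 46.6% in control_7d, and 39.3% and 34.5% in RA_7d. Cells of 1 library are not replicates, and these shares describe the libraries.

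Between 4 and 7 dpf, mesenchymal cells of control callus had higher *Mmp13* (ratio 6.51, 95% interval 5.98 to 7.11), *Mmp9* (2.78, 2.36 to 3.27) and *Mmp12* (3.77, 2.54 to 5.82) and lower *Mmp3* (0.414, 0.397 to 0.431), all past 2-fold, beside 3.56% of all genes. The call of *Mmp3* was lost under the 3 settings given above, and that of *Mmp12* under the looser filter (log2 0.70), at resolution 1 (0.84), without doublets (0.68) and with a pseudocount of 10 CPM (0.32). In RA callus *Mmp13* (2.73, 2.58 to 2.89) and *Mmp12* (15.3, 7.38 to 38.3) were higher, beside 3.3% of all genes, and *Mmp3* was 1.94-fold higher. *Mmp12* stayed below 5 CPM in mesenchymal cells in each library, next to myeloid cells with up to 215 CPM. *Mmp14* was 1.16-fold and 1.24-fold higher at 7 dpf in control and RA, respectively. *Timp2* went from 894 to 749 CPM in control, a direction that turned under the looser filter, and from 659 to 1136 CPM in RA, and *Timp1* from 665 to 620.1 CPM and from 526 to 354 CPM, where the direction in control turned at resolution 1. The osteochondral progenitor-like class, which was present at 7 dpf with 268 and 141 cells and nearly absent at 4 dpf, is part of these mesenchymal sums.

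Other genes of extracellular proteolysis were read in the same mesenchymal sums at 7 dpf, where 2.77% of all genes were past 2-fold. Of 10 other MMP genes with enough UMIs, 1 was past 2-fold higher in RA and none lower, of 8 other inhibitors and clearance genes 1, of 8 ADAM proteases none, of 18 ADAMTS proteases 2, of 8 genes of the plasminogen activator system 1, and of 8 genes of MMP activation and surface docking none. *Adamts5*, the main aggrecanase of mouse cartilage, was at 120.0 CPM in control_7d and 284 in RA_7d (log2 1.23), and *Adamts15* at 35.6 and 85.2 CPM (log2 1.24). At 4 dpf both were lower in RA, *Adamts5* at 353 CPM in control and 179 in RA (log2 -0.97) and *Adamts15* at 52.2 and 23.7 CPM (log2 -1.11).

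Of 13 MMP substrates of the callus matrix, 3 were past 2-fold higher and 3 lower in RA at 7 dpf, beside 2.77% of all genes. The median log2 ratio of the substrates was 0.01. *Eln*, which encodes elastin, was at 114 CPM in control_7d and 513 in RA_7d (log2 2.16), and *Col4a1*, a basement membrane collagen, at 109.8 and 281 CPM (log2 1.35). The cartilage genes *Col2a1*, the type II collagen, and *Acan*, the aggrecan core protein, were at 2047 and 490.3 CPM in control_7d and at 913 and 186 CPM in RA_7d (log2 -1.16 and -1.40), and *Spp1*, which encodes osteopontin, at 697 and 286 CPM (log2 -1.28). *Eln* was higher in RA at 4 dpf as well (142 and 310 CPM, log2 1.12). Osteochondral progenitor-like cells, which lead in *Col2a1*, were 268 in control_7d and 141 in RA_7d, and the part of this difference in the cartilage genes was not tested.

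The genes most like a member were taken over 82 sums of 21 classes in the 4 libraries, by the correlation of log2(CPM + 1), as a description. The sums share 4 libraries and differ in depth. *Mmp2* was most like *Cthrc1* (r = 0.95), *Ccn3* (0.93) and *Col1a1* (0.92), and *Mmp3* most like *Cpz* (0.94), *Sfrp4* (0.93) and *Clec3b* (0.92). *Timp1* was most like *Ccn4* (0.91), *Timp3* most like *Amotl1* (0.95), *Mmp14* most like *Mcrip1* (0.91) and *Timp2* most like *Tex264* (0.88). For *Mmp13* it was *Pdzrn4* (0.83) and for *Mmp12* *F7* (0.75), so these genes, carried by few cells, had lower highest correlations than the other members given here. Among the members themselves, *Mmp2* and *Mmp3* were the most alike (0.84), *Mmp2* and *Timp1* followed (0.77), and *Mmp12* and *Timp3* were the least alike (-0.53).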

How the data were processed

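Per the labels, libraries were prepared with 10x Genomics 3′ chemistry, and the submitters' processing notes name Cell Ranger 7.0.1 and mm10. The authors deposited raw UMI counts per gene and barcode, without normalization. Whether intronic reads were counted is not given in the sources used here. Barcodes with 4000 to 50000 UMIs, 2000 to 7000 genes and at most 8% mitochondrial UMIs were kept. Seurat 5.3.0 (R 4.3.3) clustered them after canonical correlation integration (30 dimensions, 2000 variable genes, 15 principal components, resolution 0.5), with the members and list genes left out of the variable genes. Doublets were called with Scrublet in scanpy 1.11.5 (592 cells, 2.32%) and kept. Counts were summed per class and library in Python 3.11.15 and divided by all UMIs of the class. Exact Poisson, Clopper-Pearson and exact conditional intervals were computed with scipy 1.17.1. Molecules of 1 pool are not replicates, so intervals cover counting error only.

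Samples were grouped by the serum and day in the labels. The labels give 4 fractures per pool, while the study's methods give another number. Classes under 20 cells in a library were not compared. Clusters were named by markers, but the thresholds of the naming were set after the clusters were seen. The members, the gene lists and the markers were chosen with earlier results of these data known. Shares of cells were thinned to 4000 UMIs, which the filter guarantees in every cell. The genes named from the lists were those past 2-fold at 7 dpf that reached 20 CPM in either library of the pair, with a limit of 5 per list, and the companions named for a member were the 3 genes with the highest correlation, or the first of them, and the result for *Mmp9* is not reported here. In simulated mesenchymal counts with 4-fold changes, 191 of 196 changed genes were called in the right direction at 4 dpf and 162 of 193 at 7 dpf, with no unchanged gene called. Both simulated libraries came from the same pooled profile with counting error alone. The simulation therefore cannot show how often a difference between libraries or pools would lead to a call. Alternatives were a looser cell filter, resolution 0.25 or 1, no integration, list genes kept, doublets left out, a pseudocount of 10 CPM, TMM scaling, a minimum of 10 UMIs, no thinning, tenocyte precursor-like cells counted as mesenchymal, equal class weights and a fixed class mix. Promoter sequences are from RefSeq and gene positions from GENCODE M21, both on GRCm38. Promoters of *Mmp2* and *Mmp9* were not used here.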

Additional observations from a re-analysis of the deposited data

Results flagged for a closer look

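For some genes the RA library was below control at one time and above it at the other. The difference between the log2 RA over control ratios, 7 dpf minus 4 dpf, was not tested, since each condition was 1 library. In all kept cells this difference was 0.78 for *Mmp2*, -3.59 for *Mmp9* and 1.02 for *Timp2*. In mesenchymal cells it was 0.66 for *Mmp2*, -2.15 for *Mmp9* and 1.04 for *Timp2*, and in myeloid cells 1.41 for *Mmp2* and -4.45 for *Mmp9*. *Mmp2* and *Timp2* were on the lower side of control at 4 dpf and above it at 7 dpf, and *Mmp9* the reverse. However, the *Mmp2* ratio at 4 dpf was near 0 in all kept cells (log2 -0.03) and in mesenchymal cells (-0.07), where it changed sign at resolution 1. The myeloid *Mmp2* level was low, at 7.79 CPM in control_4d, 4.55 in RA_4d, 18.75 in control_7d and 32.1 in RA_7d. T and natural killer cell-like cells held *Mmp2* at 5.82 to 52.7 CPM, and the part of free RNA in the myeloid difference was not tested.

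Barcodes that the filter removed for the mitochondrial limit alone, which the comparisons do not use, held *Mmp9* at 320.3 CPM in control_4d, 415 in RA_4d, 3901 in control_7d and 2.86 in RA_7d. In control_7d these were 10272 UMIs, in 49 of 248 barcodes, more than the 7941 UMIs of the osteoclast precursor-like cells that were kept. The removed barcodes of control_7d also held the osteoclast markers *Acp5*, *Ctsk* and *Ocstamp*, at 3511, 5454 and 128 CPM. Those of RA_7d held them at 13.6, 176 and 0.72 CPM.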

How the results depend on the processing

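No paired analysis was possible because each condition is 1 library and the labels pair none. Each class or lineage in a library is 1 value, and how far libraries of a condition differ is unknown. Of 216 values of the 17 ratios past 2-fold under the alternatives, all 216 kept their direction and 190 stayed past 2-fold. Over all 87 ratios, 1040 of 1078 values kept their direction, and *Mmp12* in myeloid cells and all kept cells was among those that did not. Leaving out the cell with the most UMIs, leaving out osteochondral progenitor-like cells and using no cell filter were chosen after seeing the data.

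The number of the 9 genes past 2-fold in all kept cells at 4 dpf was 0 instead of 1 under the looser filter, a pseudocount of 10 CPM, equal class weights, the class mix of control, no osteochondral progenitor-like cells and no cell filter, with log2 ratios of *Mmp13* down to 0.01. In mesenchymal cells at 4 dpf it was 1 instead of 2 at resolution 1, with the pseudocount of 10 CPM and with the class mix of control, and at 7 dpf it was 2 instead of 1 at resolution 1. In myeloid cells at 4 dpf it was 0 instead of 1 with the pseudocount of 10 CPM and the class mix of control and 2 with equal weights, and at 7 dpf 1 instead of 2 with the pseudocount of 10 CPM. In blood endothelial cells at 4 dpf it was 1 instead of 0 under the looser filter and without doublets. At 7 dpf it was 4 instead of 2 under the looser filter and 1 without integration, with list genes kept, without doublets, with the pseudocount of 10 CPM and with the class mix of control. Without doublets the log2 ratio of *Mmp9* there was larger (-1.88 instead of -1.07), but too few UMIs were left to count it. From 4 to 7 dpf in mesenchymal cells it was 2 instead of 4 in control under the looser filter and with the pseudocount of 10 CPM, and 3 at resolution 1, without doublets, with equal weights and with the class mix of 4 dpf, while in RA it was 6 and 1 instead of 2 under the first pair. The cause was not tested. The log2 ratio of *Mmp3* in mesenchymal cells at 7 dpf lay between 2.18 and 2.55, and that of *Mmp9* in myeloid cells between -4.18 and -1.35.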
